A study of Homo sapiens with 8 samples.

Results

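Antisense and divergent long noncoding transcripts were taken as the genes of the deposited expression table whose symbol ends in -AS and a number, for RNAs read from the strand opposite a named gene, or in -DT, for RNAs that start beside a named gene and run away from it. The rule found 180 members among 13771 genes, or 1.31% of the table, of which 153 ended in -AS and 27 in -DT. The gene named before the hyphen is called the partner here. It was in the table for 162 members, which had 160 different partners because some partners have more than 1 member, and 18 members had no partner in the table. RNA-seq was done on MCF10A, a non-tumorigenic human breast epithelial line, and on DCIS.COM, the line used as a model of ductal carcinoma in situ, which is known to descend from the MCF10A series through xenografts. Each line was stably transduced with pCDH-HOTAIR, a lentiviral vector that overexpresses the long noncoding RNA HOTAIR, or with pCDH-empty as control, and all cells were selected with puromycin, so the controls carry the vector backbone too. There were 2 libraries in each of the 4 groups, 8 in total. MCF10A was grown with epidermal growth factor, hydrocortisone, insulin and cholera toxin added to serum and DCIS.COM with serum alone, so line and medium cannot be told apart, and each kind of cell is represented by a single line. The sources used here do not say whether the 2 libraries of a group came from separate cultures, and the p-values then measure the spread between these libraries, which may be technical.

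Many active promoters are transcribed in both directions, and a divergent transcript and its coding neighbour then share one stretch of open DNA. An antisense transcript may instead start inside or beyond its partner and run back across it, so that the RNAs are complementary where their exons overlap. Such RNAs are known to act near their site of synthesis, as scaffolds for chromatin proteins or through the act of transcription, while many have no known function. HOTAIR itself comes from the strand opposite the HOXC genes.

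The values are log2 CPM, in which each read count is divided by a size of its library that normalization has adjusted. Whole reads could be recovered from them for 100% of the values. The recovered totals ran from 19306864 to 34884841 reads a library, the MCF10A pCDH-HOTAIR libraries being the least deep. HOTAIR had 45 and 40 reads in MCF10A pCDH-empty and 4614 and 4827 in pCDH-HOTAIR, and 119 and 140 against 7166 and 6385 in DCIS.COM, the order the labels give. Its log2 fold changes were 7.28 ± 0.12 (SE) and 5.41 ± 0.12. All 10 basal mammary markers were above 10 CPM in every library, 5 of 6 luminal markers were in the table, and only CD68 and PECAM1 of 11 markers of other cell types were. Summed basal markers reached 16061 to 17903 CPM in MCF10A and 4880 to 5419 in DCIS.COM, and luminal markers 1155 to 1208 and 4270 to 5675. Single markers did not all follow these sums. With the empty vector KRT5, KRT14, KRT17, KRT6A, CDH3 and CDH1 were lower in DCIS.COM. EPCAM, ITGB4, TP63 and ITGA6 instead had log2 differences of 2.33, 2.15, 0.75 and 0.40. Of the luminal markers, KRT8, KRT18, KRT19 and GATA3 were higher, and ESR1 had -0.45. The part of these markers in the line differences given below was not tested. DCIS.COM pCDH-empty 1 stood apart, with a median difference of 0.212 log2 units to its own replicate over all genes, where DCIS.COM pCDH-empty 2 differed from the pCDH-HOTAIR libraries by 0.101 and 0.109. In these bulk cultures fewer cells of a kind and less RNA in each cell cannot be told apart.

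The members and their partners were placed on GRCh37, the build of the files (hg19), with the GENCODE 44 annotation, which placed 178 members (not AFF1-AS1 and FRMD6-AS1) and 176 pairs. All placed pairs lay on opposite strands. In 36 pairs the 2 genes stood head to head with a gap between their 5′ ends, 20 of them -DT and 16 -AS, and the starts were a median of 94.5 bases apart, from 13 to 617. In 43 pairs the starts were within 1000 bases and the 5′ ends overlapped, which held for 4 -DT and 39 -AS transcripts. The other 97 pairs overlapped on opposite strands with starts 1015 to 861580 bases apart, and 94 of these were -AS. The suffix therefore followed position only in part, since 55 -AS members also started within 1000 bases of the partner's start. Of the placed pairs, 49 shared no exonic base and 23 shared more than 20% of the member's exonic bases. The sources used here do not give the strand setting of the read counting, so that for pairs with shared exons reads of member and partner cannot be fully told apart, and the shared percentage is given beside many of these pairs. Counting all genes, 10 members had over 50% of their exonic bases in exons of other genes, among them AGAP2-AS1 with 100%, IL10RB-DT with 84.6% and NCMAP-DT with 74.4%.

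The gaps between head-to-head starts show how little DNA separates some of these pairs. They are shown for 6 pairs because they carry contrasting results, and each sequence is the plus strand of GRCh37 between the GENCODE 44 starts of the 2 genes. In the first set, member and partner differed between the lines in the same direction. It holds PRKCQ-AS1 with PRKCQ (chr10:6622264-6622380, 117 bases), MNX1-AS1 with MNX1 (chr7:156803358-156803498, 141 bases), FLVCR1-DT with FLVCR1 (chr1:213031482-213031616, 135 bases) and SH3RF3-AS1 with SH3RF3 (chr2:109745387-109745660, 274 bases). In the second set the member differed and the partner was not called. It holds NUP50-DT with NUP50 (chr22:45559693-45559805, 113 bases) and NIPBL-DT with NIPBL (chr5:36876803-36876870, 68 bases). Capitals mark matches on either strand to the CCAAT box (CCAAT), the GC box (GGGCGG), the ETS site (CCGGAA) and the TATA box (TATAAA).
PRKCQ-AS1: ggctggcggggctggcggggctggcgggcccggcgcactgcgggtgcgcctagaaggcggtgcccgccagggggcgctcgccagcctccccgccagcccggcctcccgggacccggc
MNX1-AS1: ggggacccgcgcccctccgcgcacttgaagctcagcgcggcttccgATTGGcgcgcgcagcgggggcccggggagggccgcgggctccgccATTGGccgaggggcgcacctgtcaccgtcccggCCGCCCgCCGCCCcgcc
FLVCR1-DT: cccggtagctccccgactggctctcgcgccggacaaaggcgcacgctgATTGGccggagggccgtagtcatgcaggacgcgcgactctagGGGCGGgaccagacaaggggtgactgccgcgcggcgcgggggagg
SH3RF3-AS1: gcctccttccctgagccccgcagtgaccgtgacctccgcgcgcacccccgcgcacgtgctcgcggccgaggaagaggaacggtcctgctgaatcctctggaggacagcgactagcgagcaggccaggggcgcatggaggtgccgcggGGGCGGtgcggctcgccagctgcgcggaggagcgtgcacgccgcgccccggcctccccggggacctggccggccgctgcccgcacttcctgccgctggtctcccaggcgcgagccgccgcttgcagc
NUP50-DT: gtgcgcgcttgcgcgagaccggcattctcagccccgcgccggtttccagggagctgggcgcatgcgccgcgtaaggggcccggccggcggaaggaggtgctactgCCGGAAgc
NIPBL-DT: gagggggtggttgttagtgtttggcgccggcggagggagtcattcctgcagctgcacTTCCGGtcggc
None of the 6 gaps held TATAAA, and the gap of PRKCQ-AS1 held none of the 4 motifs. CCAAT boxes stood in the gaps of MNX1-AS1 (2) and FLVCR1-DT (1), GC boxes in those of MNX1-AS1 (2), FLVCR1-DT (1) and SH3RF3-AS1 (1), and an ETS site in those of NUP50-DT and NIPBL-DT. All 6 were rich in G and C, from 64.7% in NIPBL-DT to 84.6% in PRKCQ-AS1.

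In RefSeq windows of 300 bases around gene starts (GRCh38.p14), 147 members had a window. Their median GC content was 67.3% with 28 CG dinucleotides, against 65% and 26 for 10679 genes of the table and 58.3% and 14 for all 27305 windows. TATAAA stood in 4.76% of the members' windows, against 6.11% for genes of the table and 12% of all windows. CCAAT stood in 32.7% (37.1% and 35.7%), CCGGAA in 24.5% (29.7% and 17.6%) and GGGCGG in 65.3% (69.4% and 44.6%). The 24 windows of -DT members held TATAAA in 0%, and GGGCGG in 75%. A window of 300 bases at a head-to-head start also covers the partner's start. These shares describe letters in a window and not sites in use.

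Most of these transcripts were scarce. The median member had 57.8 reads a library, from 12.4 to 3917, against 604 for all genes, and 131 of 180 members had a mean below 100 reads. Per kilobase of exon, the median level was 0.553 CPM for members, 0.706 for -DT and 0.510 for -AS, against 5.02 for partners and 4.28 for all genes. The median partner stood 8.61 times above its member per kilobase, over 160 pairs. The histogram of levels shows the members to the left of the partners, with a long overlap.

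The most abundant members per kilobase were WAC-AS1 (41.6 CPM per kb), FGD5-AS1 (15.1), PRR34-AS1 (8.49), NCMAP-DT (7.65), SH3PXD2A-AS1 (7.61) and NDUFV1-DT (6.52). WAC-AS1 had 4867 and 3991 reads in MCF10A pCDH-empty, 2840 and 2737 in pCDH-HOTAIR, 4010 and 3803 in DCIS.COM pCDH-empty and 4630 and 4456 in pCDH-HOTAIR. It stood 5.50 times above WAC, an adaptor of histone H2B ubiquitination, and shared 15.2% of its exonic bases with it. WAC-AS1 was not called between the lines in either vector, at log2 differences of -0.15 and -0.11. Only 3 members had means over 1000 reads, WAC-AS1, FGD5-AS1 and OIP5-AS1.

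In 15 pairs the member was above its partner per kilobase. The ratio was 56.9 for NCMAP-DT over NCMAP, a myelin protein gene with 0 to 2 reads in MCF10A, but 74.4% of the exonic bases of NCMAP-DT lie in exons of other genes. AGAP2-AS1 had a ratio of 6.06, MNX1-AS1 5.80, ZNF566-AS1 4.94, THAP9-AS1 4.75 and RAB30-DT 2.84. MNX1-AS1 had 2.47 CPM per kb against 0.426 for the homeobox gene MNX1, with which it shares no exonic base in GENCODE 44.

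The first question was how these transcripts differ between DCIS.COM and MCF10A. A call needed a 1.5-fold difference or more and, in limma with Benjamini-Hochberg adjustment over all 13771 genes, an adjusted p under 0.05. With the empty vector 86 members were called, 56 higher and 30 lower in DCIS.COM, and the background over all genes was 46.3%, with 22.5% higher and 23.8% lower. The members' 47.8% was thus near the background in total, with 31.1% higher and 16.7% lower. With the HOTAIR vector 83 were called, 55 higher and 28 lower, beside a background of 43.7%, with 22% higher and 21.7% lower. The median log2 difference of the members was 0.27 and 0.21 in these comparisons, against -0.00012 and 0.0035 for all genes. The 2 comparisons share no library, but they are not independent. They use the same lines and media, and a spread estimated from all 8 libraries. In both, 64 members were called the same way, 41 higher and 23 lower, where 38.4% of all genes were (18.8% higher and 19.6% lower). None was called in opposite ways, and 151 of 180 had the same sign, beside 88.7% of all genes.

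Being in the table required 0.5 CPM in 2 libraries, so a member present in one line alone had to differ. There were 11 members above 0.5 CPM in at least 2 libraries of DCIS.COM and not of MCF10A, and 7 the other way round. The 11 included PRKCQ-AS1, SLCO4A1-AS1, SOX9-AS1, HOXA-AS3, DOCK8-AS1, ZNF687-AS1, KTN1-AS1, TBC1D8-AS1 and C2orf49-DT. The 7 were AFF1-AS1, FAM83A-AS1, MAP3K20-AS1, NAV2-AS6, SH3RF3-AS1, STXBP5-AS1 and TRHDE-AS1. Differences of these members between the lines, given below, follow in part from the filter. Among the 162 that passed in both lines, 47 were higher and 23 lower with the empty vector and 44 and 21 with the HOTAIR vector. For all 12779 genes that passed in both lines, 20.3% were higher and 21.8% lower, and 19.8% and 19.6%. Without DCIS.COM pCDH-empty 1 members were still called in both directions with the empty vector, more of them higher. The matching shares of all genes are not given here.

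The members higher in DCIS.COM included antisense RNAs of transcription factor, kinase and transporter genes. SLCO4A1-AS1, at chr20:61294371-61298076 on the minus strand, had 3 and 3 reads in MCF10A pCDH-empty, 3 and 4 in pCDH-HOTAIR, 138 and 119 in DCIS.COM pCDH-empty and 220 and 188 in pCDH-HOTAIR. It was close to 0 in every MCF10A library and above 100 reads in every DCIS.COM library. Its mean log2 CPM was -2.51 ± 0.10 (SD, n = 2) and 2.20 ± 0.03 with the empty vector, a 26.1-fold difference, and 24.02-fold with HOTAIR. PRKCQ-AS1 had 5 and 0 reads, then 5 and 4, in MCF10A and 99, 100, 124 and 128 in DCIS.COM, with log2 differences of 4.79 ± 0.47 (SE) and 3.63 ± 0.47. The first of these was 3.95 without MCF10A pCDH-empty 2, the library at 0 reads, and 5.64 without pCDH-empty 1. NR2F1-AS1, opposite an orphan nuclear receptor gene, was the most abundant of this set, with 54 and 37, then 33 and 33 reads in MCF10A and 489, 597, 760 and 723 in DCIS.COM. That is an 11.8-fold and a 12.3-fold difference with no overlap between lines. SOX9-AS1 had 2, 1, 4 and 5 reads in MCF10A and 46, 33, 54 and 58 in DCIS.COM. With so few reads the empty-vector ratio of 26.8 has a 95% counting interval of 8.83 to 133, which covers counting error only.

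MNX1-AS1 had 25, 15, 16 and 13 reads in the MCF10A libraries and 167, 124, 129 and 131 in DCIS.COM, 6.90-fold and 4.76-fold higher. SERTAD4-AS1 (4.43-fold and 5.43-fold), ARHGAP5-AS1 (3.41-fold and 4.21-fold), FLVCR1-DT (3.41-fold and 4.18-fold) and TMEM44-AS1 (3.89-fold and 3.996-fold) followed. In each of these, which were chosen by their difference, the 4 DCIS.COM libraries lay above the 4 MCF10A libraries. SH3PXD2A-AS1, opposite the gene of the invadopodia scaffold TKS5 and free of shared exons, was among the better measured, with 358, 313, 214 and 207 reads against 795, 585, 744 and 708. Its log2 differences were 1.04 ± 0.11 and 0.97 ± 0.11.

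**Figure D1:**
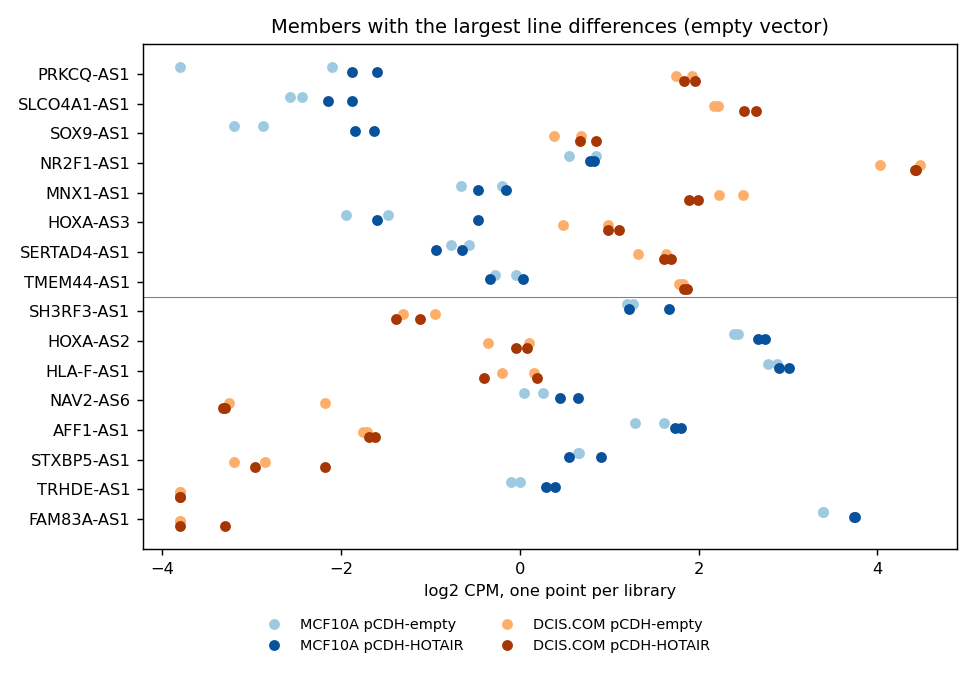
Log2 CPM of the 8 members called higher (top) and the 8 called lower (bottom) in DCIS.COM with the largest empty-vector differences, one point per library and one color per group, with -3.80 standing for 0 reads. In each row the 4 DCIS.COM points lie on one side of the 4 MCF10A points. The rows were chosen by size of difference, so this separation is no added support. PRKCQ-AS1, SLCO4A1-AS1, SOX9-AS1, HOXA-AS3, FAM83A-AS1, TRHDE-AS1, STXBP5-AS1, AFF1-AS1, NAV2-AS6 and SH3RF3-AS1 passed the 0.5 CPM filter in one line only.

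The members lower in DCIS.COM were led by FAM83A-AS1, which had 324 and 277 reads in MCF10A pCDH-empty, 258 and 268 in pCDH-HOTAIR, 0 and 0 in DCIS.COM pCDH-empty and 0 and 1 in pCDH-HOTAIR. With the empty vector it was at least 197-fold lower in DCIS.COM, against a floor of 3 reads over the group. With the HOTAIR vector the ratio was 924, with a counting interval of 165 to 36546. TRHDE-AS1, opposite the gene of an enzyme that degrades thyrotropin-releasing hormone, had 29, 23, 24 and 23 reads in MCF10A and 0 in all 4 DCIS.COM libraries, at least 17.1-fold and 27.5-fold lower. STXBP5-AS1 had 47, 40, 27 and 36 reads in MCF10A and 2, 1, 2 and 5 in DCIS.COM, an empty-vector ratio of 28.5 with a counting interval of 9.45 to 141. These 3 transcripts were present in MCF10A and at or near the floor in DCIS.COM.

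AFF1-AS1 had 93, 63, 66 and 65 reads in MCF10A and 7, 6, 9 and 8 in DCIS.COM, 9.10-fold and 10.7-fold lower. HLA-F-AS1, opposite a nonclassical class I HLA gene, had 211, 193, 155 and 148 reads in MCF10A and 24, 28, 38 and 23 in DCIS.COM. It was 7.18-fold and 8.36-fold lower, and 25.7% of its exonic bases lie in other exons. SH3RF3-AS1 was 5.13-fold and 6.49-fold lower and MAP3K9-DT 4.15-fold and 4.18-fold. For members with few reads in one line the fitted size depends on the prior count, and with a pseudocount of 1 CPM the empty-vector log2 difference of SLCO4A1-AS1 was 2.32 and that of TRHDE-AS1 -0.92.

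The 2 HOX cluster members differed in opposite directions although their genes overlap. HOXA-AS2 (chr7:27147396-27173921, plus strand) had 162, 142, 128 and 125 reads in MCF10A and 30, 19, 32 and 33 in DCIS.COM, and was 5.84-fold and 6.42-fold lower in DCIS.COM. HOXA-AS3 (chr7:27169596-27195547, plus strand) had 9, 5, 5 and 13 reads in MCF10A and 40, 51, 74 and 64 in DCIS.COM, 5.44-fold and 4.23-fold higher. Neither has a single partner by its name. HOXA-AS2 shares exons with HOXA3 and HOXA4, homeobox genes that were lower in DCIS.COM by log2 values of -1.23 ± 0.17 and -2.36 ± 0.26 with the empty vector. HOXA5, whose exons HOXA-AS3 overlaps, was also lower (-2.46 ± 0.08), while HOXA7 had 0.39 ± 0.24 with the empty vector, not called, and 0.93 ± 0.24 with HOTAIR, called higher. HOXA-AS3 has 39.3% of its exonic bases in exons of HOXA3 to HOXA7, and it differed in the direction opposite to HOXA3, HOXA4 and HOXA5.

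The second question was whether a member and its partner differ together. Over 162 pairs, both genes were called with the empty vector in 39, of which 31 went the same way (17 higher, 14 lower) and 8 opposite ways. The member alone was called in 36, the partner alone in 31 and neither in 56. With the HOTAIR vector both were called in 38, 31 the same way and 7 opposite. Partners were called in 69 and 66 of 160, 35 higher and 34 lower with the empty vector and 33 and 33 with HOTAIR. Across pairs, the member's log2 difference had Pearson's r of 0.63 and Spearman's rho of 0.43 with the partner's (empty vector), and 0.63 and 0.48 with HOTAIR, as a description only, since both genes of a pair are read from the same libraries. Over the 143 pairs with both genes above 0.5 CPM in 2 libraries of each line, r was 0.46 and 0.46.

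By arrangement, 8 of 9 pairs with both genes called went the same way among the 36 head-to-head pairs with a gap (empty vector), and 6 of 7 with HOTAIR. The 42 pairs with overlapping 5′ ends had 8 of 9 and 7 of 7, and the 82 pairs overlapping further in had 14 of 20 and 17 of 23. For the 45 pairs without a shared exonic base the counts were 10 of 12 and 9 of 11, and for the 22 with more than 20% shared 3 of 5 and 2 of 4. The order of the correlations turned with the vector and the measure. Spearman's rho was 0.57 head to head and 0.34 for pairs overlapping further in with the empty vector, then 0.39 and 0.41 with HOTAIR, while Pearson's r was 0.74 and 0.62, then 0.78 and 0.60. Without a shared exonic base rho was 0.47, against 0.41 with shared bases, then 0.36 against 0.48. These values include pairs with a gene that passed the filter in one line only. The differences between arrangements were not tested, and the counts are small.

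In 24 pairs both genes were called in the same direction in both comparisons, 13 higher and 11 lower, and 8 of the 24 shared no exonic base. Among these, PRKCQ-AS1, SOX9-AS1, DOCK8-AS1, ZNF687-AS1, FAM83A-AS1, AFF1-AS1, MAP3K20-AS1, SH3RF3-AS1 and TRHDE-AS1 passed the 0.5 CPM filter in one line only. The line difference of these members therefore follows in part from the filter. PRKCQ, the gene of protein kinase C theta, had 4, 4, 1 and 5 reads in MCF10A and 148, 141, 176 and 142 in DCIS.COM, a log2 difference of 4.61 ± 0.40 beside 4.79 ± 0.47 for PRKCQ-AS1, a value that left-out libraries moved from 3.95 to 5.64. These 2 genes start 118 bases apart with no shared exon, and both were close to the floor in MCF10A. NR2F1 had 3.60 ± 0.21 beside 3.56 ± 0.17 for NR2F1-AS1, with 0.695% of bases shared. SOX9, a transcription factor gene of epithelial progenitors, had 4.39 ± 0.07 beside 3.57 ± 0.25 for SOX9-AS1, with no shared exon. MNX1 had 2.13 ± 0.31 beside 2.79 ± 0.22, and FLVCR1, of a heme exporter, 1.26 ± 0.11 beside 1.77 ± 0.19 for FLVCR1-DT.

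On the lower side, FAM83A had 11450 and 9049 reads in MCF10A pCDH-empty and 9 and 6 in DCIS.COM, a log2 difference of -10.06 ± 0.13, so that member and partner were nearly absent together, with 4.1% of the bases of FAM83A-AS1 shared. SH3RF3 was lower by -2.82 ± 0.13 beside -2.36 ± 0.24 for SH3RF3-AS1, which starts 275 bases away. EPB41L4A was lower by -2.44 ± 0.09 beside -1.59 ± 0.20 for EPB41L4A-DT. Its other member, EPB41L4A-AS1, with 51.2% of its bases in EPB41L4A exons, had 0.06 ± 0.15 and was not called, so the 2 transcripts named for EPB41L4A did not share one pattern. GAS6, the ligand of the AXL receptor, was lower by -3.17 ± 0.10 and GAS6-DT by -0.97 ± 0.17, with starts 36 bases apart. The members' difference was here smaller in size than the partner's.

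Other pairs called together in both comparisons share exons. On the higher side, TMEM147-AS1 had log2 differences of 1.04 and 0.85 beside 1.09 and 0.88 for TMEM147, with 1.89% of the member's bases shared. DOCK8-AS1 had 0.89 and 1.26 beside 1.66 and 1.59 for DOCK8, of a guanine nucleotide exchange factor, with 13.9% shared. ATP6V0E2-AS1, opposite a subunit gene of the vacuolar proton pump, had 1.88 and 1.09 beside 2.69 and 2.62, with 26.3% shared, and ZNF687-AS1 had 1.20 and 1.39 beside 0.83 and 0.63, with 36.9% shared. On the lower side, ITGB2-AS1 had -0.65 and -0.83 beside -2.60 and -2.58 for ITGB2, of an integrin beta chain of leukocytes, with 12.1% shared. ZNF503-AS2 had -1.33 and -0.97 beside -2.66 and -2.82, with 7.35% shared, and MAP3K20-AS1 -1.50 and -2.07 beside -1.83 and -1.85, with 14% shared. The partner differed by more than the member in both comparisons for DOCK8-AS1, ATP6V0E2-AS1, ITGB2-AS1 and ZNF503-AS2, and the member by more for ZNF687-AS1.

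In 21 pairs the member was called in both comparisons and the partner in neither, 16 with the member higher and 5 lower. Of these members SLCO4A1-AS1, STXBP5-AS1, KTN1-AS1 and TBC1D8-AS1 passed the 0.5 CPM filter in one line only. SLCO4A1-AS1 had the widest gap to its partner, the gene of an organic anion transporter. SLCO4A1 had 836, 585, 531 and 413 reads in MCF10A and 936, 687, 852 and 766 in DCIS.COM, and its log2 differences of 0.22 ± 0.16 and -0.02 ± 0.16 did not pass (adjusted p = 0.259 and 0.901 in limma). The member lies inside the transcriptional unit of SLCO4A1 with 22.6% of its exonic bases shared. STXBP5, of a syntaxin-binding protein, had -0.31 ± 0.08 and -0.10 ± 0.08 beside -3.68 ± 0.32 and -3.30 ± 0.32 for STXBP5-AS1, with 1.48% shared and the starts 434 bases apart.

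Head-to-head members also differed alone. NUP50-DT had 256, 229, 155 and 209 reads in MCF10A and 107, 92, 126 and 132 in DCIS.COM, with log2 differences of -1.25 ± 0.15 and -1.28 ± 0.15. NUP50, a nucleoporin gene that starts 114 bases away, had -0.02 ± 0.06 and -0.06 ± 0.06. NIPBL-DT had 14, 17, 15 and 15 reads against 43, 48, 59 and 48 (1.46 ± 0.23 and 0.95 ± 0.23), while NIPBL, of the cohesin loader, had -0.12 ± 0.11 and -0.23 ± 0.11. Neither of these 2 pairs shares an exonic base in GENCODE 44. LPP-AS2 (1.22 and 0.98), KTN1-AS1 (1.57 and 1.63), MZF1-AS1 (1.29 and 1.26) and RAB11B-AS1 (1.21 and 1.25) were higher and KIF9-AS1 (-1.79 and -1.62) lower with partners not called. The other members of this kind named here were also higher, TBC1D8-AS1 (1.25 and 1.49), ZBTB11-AS1 (1.24 and 0.64), THUMPD3-AS1 (0.75 and 0.63), MBNL1-AS1 (0.72 and 0.998), URB1-AS1 (0.65 and 0.91) and NIFK-AS1 (0.59 and 0.83). Of these 11 members, TBC1D8-AS1 and URB1-AS1 share no exonic base with the partner, and the others share 0.97% (KTN1-AS1) to 29.2% (MZF1-AS1).

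In 5 pairs the genes were called in opposite directions in both comparisons. Of these members NAV2-AS6 passed the 0.5 CPM filter in MCF10A only. SDCBP2-AS1 had 42, 25, 21 and 25 reads in MCF10A and 99, 96, 101 and 104 in DCIS.COM, higher by 1.55 ± 0.20 and 1.30 ± 0.20. SDCBP2, of syntenin-2, had 1789, 1462, 1014 and 1053 against 223, 197, 234 and 213, lower by -2.91 ± 0.08 and -3.01 ± 0.08, with 2.26% of the member's bases shared. TMEM44-AS1 was higher by 1.96 ± 0.19 and 1.998 ± 0.19 and TMEM44 lower by -1.42 ± 0.11 and -1.14 ± 0.11, with 5.4% shared. PXN-AS1 was higher by 1.37 ± 0.20 and 1.09 ± 0.20 and PXN, of the focal adhesion protein paxillin, lower by -0.67 ± 0.07 and -0.83 ± 0.07, with 37.8% shared. NAV2-AS6, inside NAV2 and without a shared exon, had 30, 30, 25 and 30 reads against 1, 4, 1 and 1 (7.31-fold lower, and a ratio of 48.3 with a counting interval of 12.7 to 409 with HOTAIR), while NAV2 was higher by 1.23 ± 0.14 and 0.73 ± 0.14. STARD4-AS1 was lower by -0.87 ± 0.26 and -1.04 ± 0.26 and STARD4, of a cholesterol transfer protein, higher by 1.48 ± 0.18 and 2.25 ± 0.18, with 1.34% shared. The call of STARD4-AS1 with the empty vector was lost without MCF10A pCDH-empty 1 (-0.57) or DCIS.COM pCDH-empty 1 (-0.706), and with HOTAIR without MCF10A pCDH-HOTAIR 1 (-0.88). Both were lost with reads thinned to the smallest library (-0.88 and -1.02), and the first with a pseudocount of 1 CPM (-0.39).

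The -DT members, 27 in number, had as many calls in one direction as in the other, 6 higher and 6 lower with the empty vector and 7 and 7 with HOTAIR. The -AS members had 50 higher and 24 lower, then 48 and 21, of 153. That these kinds differ was not tested. MAP3K9-DT (-2.05 ± 0.15), EPB41L4A-DT, NUP50-DT, GAS6-DT, GARS1-DT (-0.80 ± 0.17) and MAP4K3-DT (-0.80) were the lower ones with the empty vector. FLVCR1-DT, C2orf49-DT (1.52 ± 0.26), NIPBL-DT, DNAJC3-DT (0.74) and PAXIP1-DT (0.63) were among the higher ones. C2orf49-DT starts 23 bases from C2orf49, which was lower with the empty vector (-0.59 ± 0.12) and had -0.29 ± 0.12 with HOTAIR, not called.

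Among groups of members named for known roles, 1 of 9 listed members opposite genes of epithelial to mesenchymal transition was in the table. This was VIM-AS1, with 27, 28, 23 and 30 reads in MCF10A and 52, 56, 80 and 74 in DCIS.COM. It was higher by 0.94 ± 0.20 and 0.71 ± 0.20, and VIM, of the mesenchymal filament protein vimentin, by 0.70 ± 0.12 with the empty vector and 0.11 ± 0.12, not called, with HOTAIR, with 30.9% of the member's bases shared. Both calls of VIM-AS1 fell under the fold threshold with a pseudocount of 1 CPM (0.57 and 0.46), and that with HOTAIR was lost without MCF10A pCDH-HOTAIR 1 (0.55) or either DCIS.COM pCDH-HOTAIR library (0.69 and 0.72). None of 9 hypoxia members was in the table. Of 13 cell cycle and DNA members, 3 were, and TMPO-AS1, beside the gene of a lamina-associated protein, was called in both comparisons (0.98 ± 0.19 and 1.05 ± 0.19), while MCM3AP-AS1 and CKMT2-AS1 were not called. Without DCIS.COM pCDH-HOTAIR 2, MCM3AP-AS1 was called higher with HOTAIR (0.72).

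Of 21 often studied antisense RNAs, 8 were in the table, and 2 were called lower and 0 higher with the empty vector, then 2 lower and 1 higher with HOTAIR. TTN-AS1 was lower in both (-0.72 ± 0.17 and -0.84 ± 0.17), with 54.9% of its bases in exons of TTN. Both calls fell under the fold threshold with a pseudocount of 1 CPM (-0.49 and -0.56), and that with the empty vector was lost with thinned reads (-0.60). FGD5-AS1 had 3544, 2909, 1948 and 2147 reads in MCF10A and 2021, 2106, 2697 and 2629 in DCIS.COM. It was lower with the empty vector (-0.62 ± 0.09), a call lost on the fold threshold without DCIS.COM pCDH-empty 1 (-0.50), with median centring (-0.57) and with quantile normalization (-0.58), and had -0.43 ± 0.09 with HOTAIR. SLC16A1-AS1 was lower with HOTAIR alone (-0.83 ± 0.20), and lost this call without DCIS.COM pCDH-HOTAIR 1 (-0.67), with a pseudocount of 1 CPM (-0.52) and with thinned reads (-0.62). PSMA3-AS1 was higher there (0.60 ± 0.19) and lost its call without any 1 of the 4 HOTAIR-vector libraries (0.517 to 0.685), with a pseudocount of 1 CPM (0.57) and in limma-voom (0.62). With the empty vector it was not called (0.42), but without DCIS.COM pCDH-empty 1 it was called higher (0.75), so the count of 0 higher turned on that library. OIP5-AS1 (0.32 ± 0.07 and 0.52 ± 0.07), LOXL1-AS1, MAPKAPK5-AS1 and EPB41L4A-AS1 were not called. Without MCF10A pCDH-HOTAIR 1, OIP5-AS1 was called higher with HOTAIR (0.59). LOXL1-AS1 had 0.19 ± 0.15 beside a partner lower by -1.92 ± 0.20, LOXL1, of a collagen and elastin cross-linking enzyme, with 6.18% shared.

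The third question was whether HOTAIR overexpression changed these transcripts. No member was called in MCF10A, beside a background of 0.0218%, and none in DCIS.COM, beside 0.0871%, in limma or in limma-voom on the recovered reads. At an unadjusted p under 0.05 there were 13 members in MCF10A, or 7.22%, beside 7.28% of all genes, and 14 in DCIS.COM, or 7.78%, beside 17.5%. The smallest adjusted p was 0.215 in MCF10A, for SOX9-AS1, and 0.201 in DCIS.COM, for GARS1-DT. The median HOTAIR difference of the members was 0.07 log2 units in both lines, and -0.0055 and 0.010 over all genes. The difference of the HOTAIR effect between the lines was called for 0 members (0.0436% of all genes), with 15 at an unadjusted p under 0.05, or 8.33%, beside 10.5% of all genes, and the smallest adjusted p of 0.319 for NCMAP-DT. An exact two-sided permutation test of 2 against 2 libraries cannot go below p = 0.333. With 1 library left out, DCIS.COM pCDH-empty 2, some members passed in DCIS.COM. The share of all genes that passed in that fit is not given here, so this is not a result about the members. The control then rests on DCIS.COM pCDH-empty 1, the library that stood apart.

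STARD4-AS1 had the largest difference in MCF10A among members with enough reads. It had 35 and 19 reads in pCDH-empty and 38 and 31 in pCDH-HOTAIR of MCF10A, where pCDH-HOTAIR was less deep, and 12 and 14 against 28 and 28 in DCIS.COM. In log2 CPM this was -0.05 ± 0.43 (SD, n = 2) against 0.86 ± 0.23, and -0.92 ± 0.24 against -0.18 ± 0.05, so that the HOTAIR libraries lay above their controls in both lines. The differences of 0.91 ± 0.26 (SE) and 0.74 ± 0.26 did not pass (adjusted p = 0.445 and 0.254 in limma), and STARD4 had -0.29 ± 0.18 and 0.48 ± 0.18. KMT2E-AS1 (0.65 ± 0.19), TFIP11-DT (0.65 ± 0.26) and TRAF3IP2-AS1 (0.60 ± 0.24) came next in MCF10A. The largest negative values there were those of ASH1L-AS1 (-0.85 ± 0.40), PITPNA-AS1 (-0.54 ± 0.19), H1-10-AS1 (-0.54 ± 0.30) and ZNF566-AS1 (-0.50 ± 0.25).

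In DCIS.COM the largest positive values were those of HMGN3-AS1 (1.08 ± 0.34), MELTF-AS1 (0.90 ± 0.44), ASMTL-AS1 (0.77 ± 0.37) and STARD4-AS1. HMGN3-AS1, whose partner encodes a nucleosome-binding protein, had 14 and 22 reads in DCIS.COM pCDH-empty and 45 and 51 in pCDH-HOTAIR, and 50 and 35 against 22 and 41 in MCF10A. The DCIS.COM groups did not overlap, but the difference did not pass (adjusted p = 0.235 in limma), and in MCF10A it was 0.07 ± 0.34. The study, which used edgeR on the same libraries, listed HMGN3-AS1 among its changed genes. The paper reported many more changed genes in each line than limma called here, so the methods differ beyond this member. Over the whole table, limma called 3 genes in MCF10A and 12 in DCIS.COM. The absence of called members under HOTAIR therefore holds for a fit that called few genes of any kind. HMGN3 had 0.41 ± 0.15 in DCIS.COM and -0.01 ± 0.15 in MCF10A. MELTF-AS1 had 28 reads in DCIS.COM pCDH-empty 1 and 77 in pCDH-empty 2, against 121 and 97. Without pCDH-empty 1 its difference was 0.12, and without pCDH-empty 2 it was 1.68. The largest negative values were those of KDM4A-AS1 (-0.82 ± 0.37), AQP4-AS1 (-0.64 ± 0.28), ATP6V0E2-AS1 (-0.60 ± 0.35) and UCKL1-AS1 (-0.54 ± 0.23). KDM4A-AS1 had 83 reads in pCDH-empty 1 and 32 in pCDH-empty 2, against 41 and 29, and its difference was -0.24 without pCDH-empty 1. Both values thus turned on DCIS.COM pCDH-empty 1.

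**Figure D2:**
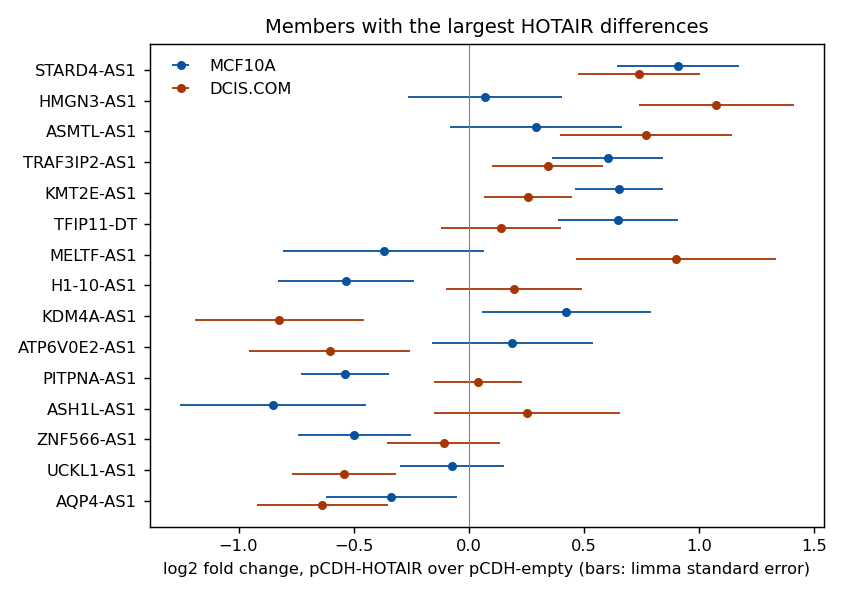
Log2 fold change of pCDH-HOTAIR over pCDH-empty in MCF10A (blue) and DCIS.COM (brown) for the members named in the HOTAIR comparisons, with limma standard errors as bars. No value passed the threshold. STARD4-AS1 has positive values in both lines and AQP4-AS1 negative values in both, while MELTF-AS1 and KDM4A-AS1 lie on opposite sides of 0.

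Under HOTAIR the difference of a member had the same sign as that of its partner in 79 of 162 pairs in MCF10A and in 84 in DCIS.COM, with r of 0.06 and 0.13 across pairs as a description. VIM-AS1 had 0.45 ± 0.20 in MCF10A beside 0.72 ± 0.12 for VIM (adjusted p = 0.693 and 0.155 in limma), and 0.22 ± 0.20 beside 0.13 ± 0.12 in DCIS.COM. HOXA-AS2 had 0.28 ± 0.18 and 0.15 ± 0.18, and HOXA-AS3 0.67 ± 0.38 and 0.31 ± 0.38, none of which passed.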

How the data were processed

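RNA-seq libraries of MCF10A and DCIS.COM were aligned by the study to hg19 with Rsubread and counted with featureCounts on UCSC known genes. The authors normalized with edgeR and deposited log2 CPM values. All 13771 genes of the table were above 0.5 CPM in at least 2 libraries. The strand setting and the treatment of reads on overlapping genes are not given in the sources used here. Values rose in steps from a shared prior of 0.0717 CPM, from which whole reads were recovered (tolerance 0.1 read). No per-sample column was left unused (0 columns).

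Groups came from the labels. Members were matched by symbol, and placed with GENCODE 44 on GRCh37, whose exons may differ from the annotation used for counting. Promoter windows came from RefSeq (GRCh38.p14), for letters only. limma 3.58.1 (R 4.3.3, mean-variance trend) was fitted on 4 group means over all genes and 8 libraries, for DCIS.COM over MCF10A within each vector, HOTAIR over empty within each line, and their difference, which had no fold threshold. Other steps ran in Python 3.11.15 (numpy 2.4.6 and pandas 2.3.3, with scipy 1.17.1). On simulated data with 200 changed genes of 13771 (10 draws), 2-fold changes were recovered in 95.1% for the line comparison and 94.7% and 93.2% for HOTAIR in MCF10A and DCIS.COM, and 2.41% or fewer calls were false. The simulation gave all genes and libraries a single fixed spread beyond counting error. The real DCIS.COM pCDH-empty replicates differed by a median of 0.212 log2 units, and those of the other groups by 0.0646 to 0.0845. These rates may therefore not hold for HOTAIR in DCIS.COM or for scarce members.

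Members named in the text were those with the largest differences per comparison and at least 10 reads in every library of the higher group, pairs called in opposite directions, the 6 most abundant per kb, listed RNAs, and HMGN3-AS1, which was taken from a gene list the study made on these libraries and is thus no independent choice. This gave 51. The pairs called alone or together, the -DT members and those above their partner were named after their values were seen. The members and lists were chosen with earlier results of these data known. The alternatives were a pseudocount of 1 CPM, median centring, quantile normalization, a mean CPM of at least 1 (13184 genes), a fit without the trend, a block for the replicate number, fits by line, other thresholds and each library left out. limma-voom on recovered reads, thinning to the smallest library, and pairs above 0.5 CPM in both lines were chosen after seeing the data. The limma-voom and thinned fits divided by plain read totals, so they changed the scaling too. Some members that enter the counts are not reported here by name.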

Additional observations from a re-analysis of the deposited data

How the results depend on the processing

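With a pseudocount of 1 CPM, 53 members were called between the lines with the empty vector (34 higher, 19 lower), and a 2-fold threshold left 49 in each of the line comparisons. The shares of all genes under these settings are not given here. These counts therefore do not show whether members lose calls more than other genes do. Requiring both genes above 0.5 CPM in 2 libraries of each line left 15 pairs called in the same direction in both comparisons, in place of 24. The pairs that dropped out had a gene that did not reach that level in both lines. Leaving out each library in turn gave 70 to 93 members with the empty vector, 66 to 85 with the HOTAIR vector, 0 to 18 for HOTAIR in DCIS.COM and 0 to 17 for the difference of the HOTAIR effect, with both highest values (13 higher and 5 lower, then 11 higher and 6 lower) without DCIS.COM pCDH-empty 2. The group left with 1 library was assumed there to vary like the others. The other alternatives kept 0 members for HOTAIR in each line and kept the line counts within 1.5 times.

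Libraries with the same replicate number did not deviate together across genes (Pearson's r from -0.016 to 0.0661). The sources used here do not say whether they were prepared together, and this measure cannot decide it. With the replicate number as a block, 86 members (55 higher, 31 lower) and 84 (55 and 29) were called between the lines and 0 in each HOTAIR comparison and their difference.

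There were 11 cases in which leaving out a library turned the sign of a value near 0 that was not called. The ranges were -0.021 to 0.38 and -0.066 to 0.14 for NDUFV1-DT (empty and HOTAIR vector), -0.22 to 0.32 and -0.13 to 0.53 for CKMT2-AS1, -0.043 to 0.17 and -0.027 to 0.38 for EPB41L4A-AS1, -0.10 to 0.30 for SLC16A1-AS1 (empty vector) and -0.34 to 0.48 for HMGN3-AS1 under HOTAIR in MCF10A. PRR34-AS1 lost its call with HOTAIR without MCF10A pCDH-HOTAIR 1 (-0.56). Without DCIS.COM pCDH-empty 2, HOTAIR calls appeared for HMGN3-AS1 (1.44), MELTF-AS1 (1.68), STARD4-AS1 (0.91), KDM4A-AS1 (-1.40), AQP4-AS1 (-0.99) and UCKL1-AS1 (-0.75) in DCIS.COM. With DCIS.COM fitted alone, HOTAIR itself had 5.41 at an adjusted p of 0.0537 in limma. Of the members, 131 had means under 100 reads, and recovery at that depth was not measured.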

Other observations

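Some partners differed strongly while their -AS or -DT member did not. The partner alone was called in 31 pairs with the empty vector and in 29 with the HOTAIR vector. OIP5, of a centromere protein, was higher in DCIS.COM by 1.24 ± 0.11 and 1.22 ± 0.11, beside 0.32 ± 0.07 and 0.52 ± 0.07 for OIP5-AS1 (3.39% shared), an abundant RNA with 1402 to 2420 reads outside MCF10A pCDH-HOTAIR. AGAP2 was higher by 1.98 ± 0.22 and 2.33 ± 0.22 and AGAP2-AS1 had 0.32 ± 0.15 and -0.18 ± 0.15, but all exonic bases of AGAP2-AS1 lie in exons of other genes. In another pair with shared exons the signs differed. PITPNA-AS1, with 63.9% of its bases in exons of PITPNA, was higher by 0.72 ± 0.19 and 1.30 ± 0.19, and PITPNA had -0.57 ± 0.07 and -0.61 ± 0.07.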
